A study of Mus musculus with 3 samples.

Results

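The genes described here are 9 costimulatory and coinhibitory surface molecules of antigen-presenting cells, out of 22548 genes in the deposited matrix. They are the B7 family members Cd80, Cd86, Icosl, Cd274 and Pdcd1lg2, the maturation marker Cd83, and the SLAM family members Slamf1, Slamf7 and Cd48. They were chosen by name, though with earlier results of these data known, and all 9 were detected. A dendritic cell that presents antigen also shows B7 ligands to the T cell. CD80 and CD86 engage CD28 and CTLA-4, ICOSL engages ICOS, and PD-L1 and PD-L2 engage the inhibitory receptor PD-1. SLAM receptors are adhesion and signalling molecules of leukocytes, most of which bind a second copy of themselves on the neighbouring cell. These ligands are known to be shown at high level by migratory dendritic cells, which carry antigen from the skin to the draining lymph node.

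The cells came from ear-draining lymph nodes of mice of 1 genotype, SiglechiCreTg/0 ROSA26LoxP-STOP-LoxP-RFP Tnfsf4KI/+, all treated with MC903 on days 0, 2 and 4 and sorted on day 5. MC903 (calcipotriol) causes a type 2 skin inflammation in mice, and no untreated group was analysed here. RFP stays on in cells with a history of Cre driven by Siglech, a gene of plasmacytoid dendritic cells, and BFP reports Tnfsf4, which encodes the T cell costimulator OX40L. B220-, XCR1- and CD326-negative cells with high MHC class II and low to intermediate CD11c were sorted into 4 populations with 1 hashtag antibody each. The pool held 10400 BFP+RFP- cells and 5200 cells of each other population (BFP+RFP+, BFP-RFP+ or BFP-RFP-), stained with 4 further barcoded antibodies (CD11b, CD8a, CD172a, CD301b), and went through 1 capture. RFP thus records a past and not a present state, and how many mice were pooled is not given in the labels. Each population is 1 sample, so no test between populations was possible and no p-value is given.

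Of 6079 barcodes, 5023 drew 80% or more of their hashtag UMIs from 1 hashtag, had 1000 or more mRNA UMIs and stayed within 10% mitochondrial UMIs. Median depth was 15182 mRNA UMIs in 842 BFP+RFP+ and 14330 in 982 BFP-RFP+ cells, against 14850 in 2185 BFP+RFP- and 13884 in 1014 BFP-RFP- cells. Clustering without the 9 genes, Tnfsf4, Siglech and the reporters gave 12 clusters. Clusters 1 to 7, with 4532 cells, had the label's dendritic cell genes, with Ccr7 in 98.9%, Fscn1 in 99.1% and Flt3 in 94.3% of cells. Xcr1 and Cd207, genes of cell types gated out, were near 0 there. Xcr1, a gene of type 1 conventional dendritic cells, had 10 UMIs in all, and Cd207, a Langerhans cell gene, had 7 UMIs. Epcam, whose protein was also gated against, had 145 UMIs, with a UMI in 2.16% of these cells. Itgam, which encodes CD11b, had a UMI in 0.44% of these cells, so the CD11b tag and its mRNA are different readouts. Not all barcodes matched the label: cluster 8 (226 cells) was T and NK cell-like, cluster 9 (89 cells) B cell-like and cluster 10 (82 cells) macrophage- and monocyte-like. Cluster 8 also had H2-Ab1 in 47.8%, Fscn1 in 41.6% and Flt3 in 26.5% of its cells. Its member levels are thus given below for comparison and are no floor, and the source of these transcripts was not tested. The 14 macrophage and monocyte markers summed to 279 and 693 UMIs per 1000000 mRNA UMIs (CPM) in BFP+RFP+ and BFP-RFP+ cells, and to 199 and 711 CPM in BFP+RFP- and BFP-RFP- cells. Whole lists for the cell types gated out were not near 0. The 9 markers of type 1 conventional dendritic cells summed to 491 CPM in BFP+RFP+ and up to 544 CPM in BFP-RFP- cells. The 6 Langerhans cell markers summed to 46.3 CPM in BFP+RFP+ and up to 139 CPM in BFP-RFP- cells. Values without clusters 8 to 12 are given below where a call moved.

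Levels are given in CPM, the UMIs of a gene per 1000000 mRNA UMIs over all cells of a population, with exact 95% Poisson intervals. Ratios are log2 ratios with a pseudocount of 0.5 UMI, and a gene was called past the fold where its ratio was 0.5 or more in size, up or down. All intervals describe counting error alone and leave out any spread between mice, sorts or captures. A higher level can mean more cells with the transcript or more transcripts per cell. The share of cells with a UMI is therefore also given after each cell was thinned to 5000 UMIs, which left out 56 BFP+RFP+ and 82 BFP-RFP+ cells, and 153 BFP+RFP- and 86 BFP-RFP- cells, that were shallower.

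The CD28 ligands were highest in the double-positive cells when all 5023 cells were counted. Cd80 stood at 867 CPM in BFP+RFP+ and 704 CPM in BFP-RFP+ cells, whereas BFP+RFP- cells had 636 CPM and BFP-RFP- cells 597 CPM. Every step of this order was larger than counting error, and both RFP+ populations lay above both RFP- populations. After thinning, a Cd80 UMI was found in 87.3% of BFP+RFP+, 76.8% of BFP-RFP+, 74.0% of BFP+RFP- and 68.5% of BFP-RFP- cells, against 29.2% of 192 T and NK cell-like cells, although activated T cells can express CD80. Cd86, the ligand that resting dendritic cells already carry, stood at 1457 CPM in BFP+RFP+ and 1367 CPM in BFP-RFP+ cells, against 1178 CPM in BFP+RFP- and 1142 CPM in BFP-RFP- cells. Its populations lay closer together, and its thinned share was 90.6% in BFP+RFP+ and 81.5% in BFP-RFP- cells, against 36.5% of the T and NK cell-like cells. Between RFP+ and RFP- cells, Cd80 differed by log2 0.45 (95% interval 0.41 to 0.48) among BFP+ cells and 0.24 (0.20 to 0.28) among BFP- cells, and Cd86 by 0.31 and 0.26. Between BFP+ and BFP- cells, Cd80 differed by 0.30 (0.26 to 0.34) among RFP+ cells but by 0.09 (0.06 to 0.13) among RFP- cells, and Cd86 by 0.09 and 0.04. These BFP ratios depended on the barcodes counted: without barcodes with UMIs of other-cell markers, which removed 2574 of the cells, they were -0.05 and 0.06 for Cd80 and -0.13 and 0.05 for Cd86. The RFP ratios kept their sign, at 0.33 and 0.44 for Cd80 and 0.33 and 0.51 for Cd86. In clusters 1 to 7 alone the BFP ratios were 0.26 and 0.08 for Cd80 and 0.03 and 0.06 for Cd86. The RFP ratios were smaller when clusters were weighted to the same mix in each population, at 0.17 and 0.10 for Cd80 and 0.09 and 0.08 for Cd86. In that mix the BFP ratios were 0.21 and 0.14 for Cd80 and 0.14 and 0.13 for Cd86. These exceeded the RFP ratios, so which reporter went with the larger difference depended on the cluster mix.

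Icosl, whose product sustains follicular helper and other effector T cells through ICOS, differed more between RFP states than the other B7 genes, with more in RFP+ cells. It stood at 114 CPM (108 to 119) in BFP+RFP+ and 91.8 (87.1 to 96.6) in BFP-RFP+ cells, whereas BFP+RFP- cells had 64.8 (62.2 to 67.5) and BFP-RFP- cells 56.1 (52.3 to 60.0). None of these intervals overlapped. RFP+ cells exceeded RFP- cells by log2 0.81 (0.72 to 0.90) among BFP+ cells and 0.71 (0.59 to 0.84) among BFP- cells, both past the fold. The difference between BFP+ and BFP- cells was smaller, at 0.31 among RFP+ and 0.21 among RFP- cells, and turned to -0.04 and -0.09 when clusters were weighted to the same mix. The thinned shares of cells were 35.2% in BFP+RFP+ and 29.8% in BFP-RFP+ cells, as well as 22.3% in BFP+RFP- and 21.0% in BFP-RFP- cells, against 6.77% of the T and NK cell-like cells. The 250 bases before the Icosl gene start are shown because the gene was the B7 member furthest up in RFP+ cells. They lie at chr10:78069118-78069367 on the plus strand of GRCm38.p6 in RefSeq's annotation, and capitals mark matches on either strand to a short NF-kB motif, GGG and CC with 5 bases between them.
Icosl promoter: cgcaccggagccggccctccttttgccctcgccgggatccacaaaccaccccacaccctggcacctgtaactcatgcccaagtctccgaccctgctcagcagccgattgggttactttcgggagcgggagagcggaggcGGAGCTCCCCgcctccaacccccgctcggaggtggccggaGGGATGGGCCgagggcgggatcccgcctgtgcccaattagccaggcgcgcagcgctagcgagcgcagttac
The matches begin 111 and 71 bases before the gene start.

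The PD-1 ligands did not move together, although their genes are direct neighbours on chromosome 19. Cd274, which encodes PD-L1, stood at 762 CPM in BFP+RFP+ and 774 in BFP-RFP+ cells, whereas BFP+RFP- cells had 644 and BFP-RFP- cells 687. RFP+ cells exceeded RFP- cells by log2 0.24 (0.21 to 0.28) and 0.17 (0.13 to 0.21), and the BFP ratios were -0.02 among RFP+ and -0.09 among RFP- cells. With median-of-ratios scaling the BFP ratios were 0.08 and -0.02, so no direction is read from them. Its thinned share was 82.9% to 87.0% over the populations, against 39.6% of the T and NK cell-like cells. Pdcd1lg2, which encodes PD-L2 and is known to respond to type 2 cytokines, had another order, at 47.5 CPM (44.0 to 51.3) in BFP+RFP+ and 77.7 (73.4 to 82.1) in BFP-RFP+ cells, whereas BFP+RFP- cells had 76.5 (73.6 to 79.4) and BFP-RFP- cells 95.4 (90.5 to 101). The BFP+RFP+ cells stood low and the BFP-RFP- cells high, while the intervals of the middle pair overlapped. BFP+ cells were lower than BFP- cells by log2 -0.71 (-0.85 to -0.57) among RFP+ cells and -0.32 (-0.41 to -0.23) among RFP- cells. RFP+ cells were lower than RFP- cells by -0.69 (-0.81 to -0.56) among BFP+ cells and -0.30 (-0.41 to -0.19) among BFP- cells. With clusters weighted to the same mix in each population, these RFP ratios were only -0.18 and -0.08. The thinned shares of cells were 16.7% in BFP+RFP+ and 22.8% in BFP-RFP+ cells, as well as 20.7% in BFP+RFP- and 28.4% in BFP-RFP- cells, against 9.38% of the T and NK cell-like cells. The upstream sequence of Pdcd1lg2 (chr19:29410669-29410918, plus strand, GRCm38.p6, RefSeq) is shown for the contrast with Icosl, with matches to the NF-kB motif and to the PU.1 motif GAGGAA in capitals.
Pdcd1lg2 promoter: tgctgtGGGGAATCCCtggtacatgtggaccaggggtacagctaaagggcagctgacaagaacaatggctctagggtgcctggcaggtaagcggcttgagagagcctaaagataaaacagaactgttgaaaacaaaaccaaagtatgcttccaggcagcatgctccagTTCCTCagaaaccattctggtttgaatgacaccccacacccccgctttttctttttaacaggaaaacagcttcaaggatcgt
The NF-kB match begins 244 bases before the gene start and the PU.1 match, read on the other strand, 82 bases before it.

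Cd83, a marker of mature dendritic cells whose product stabilises MHC class II and CD86 at the surface, was nearly level. It stood at 734 CPM in BFP+RFP+ and 784 in BFP-RFP+ cells, whereas BFP+RFP- cells had 693 and BFP-RFP- cells 809. Both BFP+ populations lay below both BFP- populations, by log2 -0.09 among RFP+ and -0.22 (-0.25 to -0.19) among RFP- cells. The ratio among RFP+ cells turned to 0.01 under median-of-ratios scaling. The thinned share was 83.5% to 86.3%, against 37.5% of the T and NK cell-like cells.

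Among the SLAM genes Slamf1 stood out, and in 3 of the 4 comparisons it differed most of all 9 genes. It encodes CD150, a self-ligand of T cells, macrophages and dendritic cells. It stood at 36.6 CPM (33.5 to 39.9) in BFP+RFP+ and 77.7 (73.4 to 82.2) in BFP-RFP+ cells, whereas BFP+RFP- cells had 89.3 (86.2 to 92.4) and BFP-RFP- cells 123 (117 to 128). The order was the reverse of that of Icosl, and no intervals overlapped. The double-positive cells thus held 2.12-fold less than BFP-RFP+ cells and 2.44-fold less than BFP+RFP- cells. BFP+ cells were lower than BFP- cells by log2 -1.09 (-1.24 to -0.94) among RFP+ cells and by -0.46 (-0.54 to -0.37) among RFP- cells. RFP+ cells were lower than RFP- cells by -1.29 (-1.42 to -1.15) among BFP+ cells and by -0.66 (-0.76 to -0.55) among BFP- cells. The thinned shares of cells were 12.6% in BFP+RFP+ and 23.2% in BFP-RFP+ cells, as well as 24.8% in BFP+RFP- and 31.8% in BFP-RFP- cells. T cells express Slamf1 themselves, so the macrophage- and monocyte-like cluster is given for comparison, at 7.59% of 79 cells. Macrophages can express it too, so this is no floor. Few cells carried much of the transcript, and the top 5 cells held 15.7% of its UMIs in BFP+RFP+ and 9.23% in BFP-RFP+ cells, against 4.63% in BFP+RFP- and 6.74% in BFP-RFP- cells. The upstream sequence of Slamf1 (chr1:171766882-171767131, plus strand, GRCm38.p6, RefSeq) is shown beside those of Icosl and Pdcd1lg2 and held none of the motifs searched.
Slamf1 promoter: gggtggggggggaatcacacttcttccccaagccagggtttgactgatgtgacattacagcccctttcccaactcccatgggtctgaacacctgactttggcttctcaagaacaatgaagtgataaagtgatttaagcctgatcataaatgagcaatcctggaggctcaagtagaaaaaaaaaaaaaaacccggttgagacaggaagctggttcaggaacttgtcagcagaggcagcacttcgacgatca
Slamf7 and Cd48 lie beside it on chromosome 1, with 1 pseudogene between Cd48 and Slamf1, and differed less. Slamf7, which encodes CRACC, a self-ligand best known from NK and plasma cells, stood at 280 CPM in BFP+RFP+ and 268 CPM in BFP-RFP+ cells, and 268 CPM in BFP+RFP- and 274 CPM in BFP-RFP- cells. Cd48, whose product binds 2B4 and CD2, stood at 198 CPM in BFP+RFP+ and 199 CPM in BFP-RFP+ cells, and 166 CPM in BFP+RFP- and 153 CPM in BFP-RFP- cells. Slamf7 ratios lay between -0.03 and 0.06 in the 4 comparisons, and that of BFP+RFP- over BFP-RFP- cells turned from -0.03 to 0.05 with TMM scaling. Cd48 was higher in RFP+ than in RFP- cells, by log2 0.25 (0.18 to 0.31) among BFP+ cells and 0.38 (0.31 to 0.46) among BFP- cells.

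**Figure D1:**
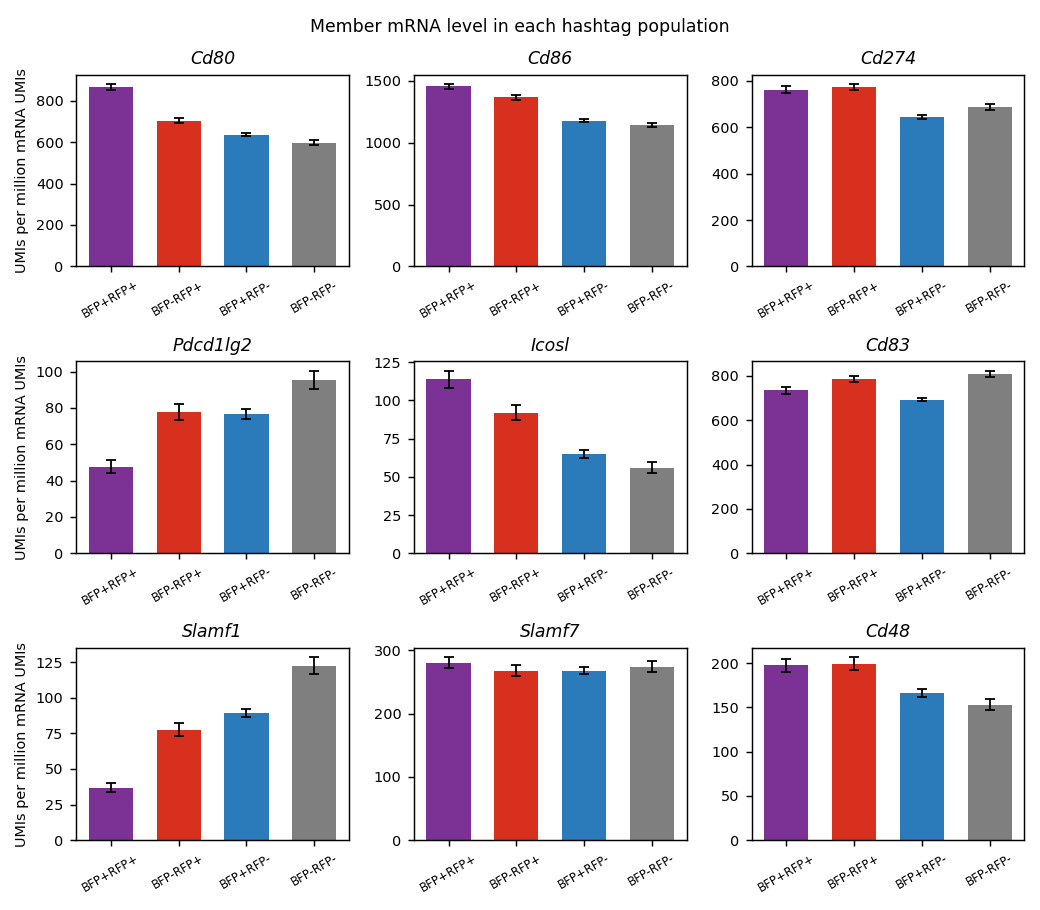
Level of each of the 9 genes (y axis, CPM) in the 4 hashtag populations, 1 sample each; error bars are exact 95% Poisson intervals for counting error. Slamf1 and Pdcd1lg2 were lowest in BFP+RFP+ cells, at 36.6 and 47.5 CPM, where Icosl and Cd80 were highest, at 114 and 867 CPM.

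In BFP+RFP+ over BFP-RFP+ cells, 2 of the 9 genes, Slamf1 and Pdcd1lg2, were past the fold, against 11.8% of the 9463 genes with at least 100 UMIs, and 9.31% of them were past it downwards as both were. In BFP+RFP- over BFP-RFP- cells none was, against 7.97% of genes, with 2.58% upwards and 5.39% downwards. In clusters 1 to 7 alone Slamf1 passed it there, at -0.53. In BFP+RFP+ over BFP+RFP- cells 3 were, Icosl upwards and Slamf1 and Pdcd1lg2 downwards, against 11.1% of genes, with 4.34% upwards and 6.79% downwards. In BFP-RFP+ over BFP-RFP- cells Icosl upwards and Slamf1 downwards were, against 9.12% of genes, with 5.21% upwards and 3.91% downwards. The median ratios of the 9 genes were -0.01, -0.03, 0.24 and 0.17 in these comparisons, beside -0.09, -0.07, -0.03 and -0.01 over all genes. The 4 comparisons share populations, so their values are not independent.

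The 2 contrasts of each reporter can also be set against each other. For Slamf1 the BFP ratio among RFP+ cells lay below that among RFP- cells by 0.63 on the log2 scale (difference -0.63, -0.80 to -0.46), and for Pdcd1lg2 the difference was -0.39 (-0.55 to -0.22). For Cd80 it was 0.21 (0.16 to 0.26), and for Icosl 0.10 (-0.05 to 0.25), whose interval includes 0. With the clusters weighted to the same mix these differences were -0.22 for Slamf1, -0.11 for Pdcd1lg2 and 0.07 for Cd80. Without barcodes with other-cell markers the difference for Cd80 was -0.11, while Slamf1 was at -0.55 and Pdcd1lg2 at -0.44. In clusters 1 to 7 alone the differences for these genes were 0.18, -0.67 and -0.51. The direction for Cd80 thus depended on which barcodes were counted.

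**Figure D2:**
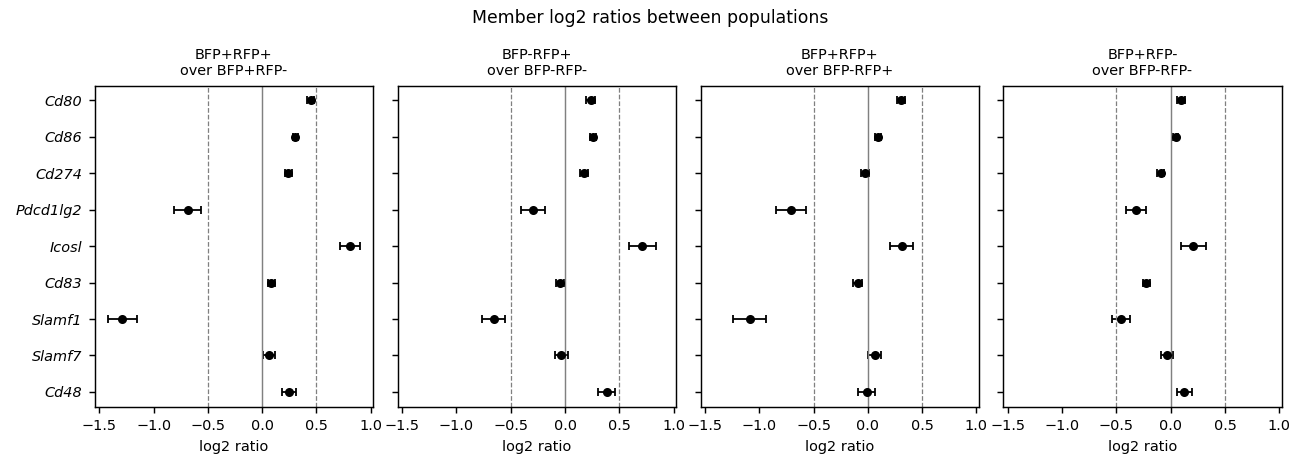
log2 ratio of each gene (x axis) in the 4 comparisons between populations, with exact 95% intervals for counting error; dashed lines mark 0.5 in size. Slamf1 stood furthest to the left in all panels, down to -1.29 in BFP+RFP+ over BFP+RFP- cells, and Icosl furthest to the right in both comparisons of RFP+ with RFP- cells.

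Relatives and receptors of these genes were described as 4 lists, of which the genes with at least 100 UMIs in a comparison were counted and the 8 largest ratios past the fold named. Beside these counts, 11.8% and 7.97% of all genes were past the fold for BFP among RFP+ and RFP- cells. For RFP the shares were 11.1% among BFP+ and 9.12% among BFP- cells. Of 6 other B7, butyrophilin and checkpoint ligands, 3 were lower in BFP+RFP+ than in BFP-RFP+ cells and none higher. They were Pvr, a ligand of TIGIT and CD226, at log2 -1.06, Lgals9, a galectin, at -0.99, and Nectin2, which shares its receptors with Pvr, at -0.64. In BFP+RFP+ over BFP+RFP- cells 1 was higher and 3 lower, Pvr at -0.90 and Lgals9 at -0.87 among them. In BFP-RFP+ over BFP-RFP- cells 2 were higher, with Nectin2 at 0.85, and 1 lower, Vsir, the checkpoint ligand VISTA, at -0.78. Vsir was also the 1 lower gene in BFP+RFP- over BFP-RFP- cells, at -0.70, where 1 gene was higher. The medians of this list were -0.56 and -0.23 for BFP among RFP+ and RFP- cells, and -0.48 and -0.19 for RFP among BFP+ and BFP- cells. All were below the median of all genes in the same comparison.

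Of the other SLAM genes and adaptors, 2 were lower in each comparison and up to 2 higher. Slamf8, a gene of macrophages, was at -2.15 in BFP+RFP- over BFP-RFP- cells, from 44 and 82 UMIs, and at -0.82 in BFP-RFP+ over BFP-RFP- cells. The macrophage and monocyte markers, given above, were high in both BFP- populations, and their part in this result was not tested. Cd244a, the receptor of CD48, was lower in BFP+ cells at -0.63 among RFP+ and -0.71 among RFP- cells. Slamf9 was at -0.88 in BFP+RFP+ over BFP+RFP- cells, and Slamf6, another self-ligand of lymphocytes, at 0.79 in BFP-RFP+ over BFP-RFP- cells.

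Of 6 other costimulators, 2 and 1 were higher for BFP among RFP+ and RFP- cells and 3 in each RFP comparison, and 1 was lower among them, in BFP-RFP+ over BFP-RFP- cells. Tnfsf4, which the BFP gate selects, was at 2.53 and 2.36 in the BFP comparisons among RFP+ and RFP- cells. It is included in both counts and was the only gene higher among RFP- cells. The sort thus set that part of the counts, which is no result about the list. Tnfsf9, which encodes 4-1BBL, was higher in RFP+ cells at 1.13 among BFP+ and 0.96 among BFP- cells, and Cd70, the CD27 ligand, at 0.93 and 0.72. Of 8 partners and receptors, 3 were lower and none higher in BFP+RFP+ over BFP-RFP+ cells, with Ctla4, the inhibitory receptor of CD80 and CD86, at -0.85 and Cd28 at -0.68. In BFP+RFP- over BFP-RFP- cells 2 were higher, Ctla4 at 1.29 and Cd2 at 0.90, and 2 lower, Marchf8 at -0.89 and Marchf1 at -0.69, ubiquitin ligases known to remove CD86 and MHC class II from the surface. In BFP+RFP+ over BFP+RFP- cells 4 were lower, Ctla4 at -1.32 and Cd2 at -0.76 among them. In BFP-RFP+ over BFP-RFP- cells 2 were higher, Ctla4 at 0.83 among them, and 2 lower. The 14 T and NK cell markers summed to 541 CPM in BFP+RFP+ and 539 CPM in BFP-RFP+ cells, and to 511 CPM in BFP+RFP- and 437 CPM in BFP-RFP- cells. Their part in these receptor ratios was not tested.

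The 9 genes divided the dendritic cell clusters in different ways. Slamf1 was high in cluster 7, led by Plppr4 and Ccl17, at 201 CPM, in cluster 3, led by Shisa9, at 151 CPM, and in cluster 1, led by Ccrl2, at 146 CPM. It was at 9.89 CPM in cluster 4, led by Thy1 and Dll4, and at 16.1 CPM in cluster 6, led by Dkk2. At matched depth 3.07% and 5.64% of these cells had a UMI, against 7.59% of the macrophage- and monocyte-like cluster. Macrophages can express Slamf1, so that cluster sets no floor, and whether these low values are background was not settled. Icosl had the opposite pattern, with 185 CPM in cluster 6 and 119 CPM in cluster 4, against 40.2 to 60.0 CPM in the other dendritic cell clusters and 28.8 CPM in the T and NK cell-like cluster. After thinning, 55.6% of cells of cluster 6 and 42.2% of cluster 4 had an Icosl UMI, and 48.6% of cells of cluster 7 had a Slamf1 UMI. Pdcd1lg2 was highest in cluster 5, led by Edil3 and Ifitm1, at 180 CPM. Its 46.7 to 49.2 CPM in clusters 1 to 3 were close to the 47.8 CPM of the T and NK cell-like cluster, although at matched depth 15% to 17.6% of cells had a UMI, against 9.38%. Cluster 5 was also the cluster with the highest median CD11b tag of clusters 1 to 7, at 224 UMIs. Cd80 was low there, at 275 CPM, and in cluster 2, led by Clu, at 244 CPM, against 1029 CPM in cluster 1 and 965 CPM in cluster 4. Cd86 was highest in cluster 7, at 2145 CPM, and cluster 4, at 2041 CPM. Slamf7 ranged only from 218 to 347 CPM and Cd48 from 134 to 246 CPM over clusters 1 to 7.

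**Figure D3:**
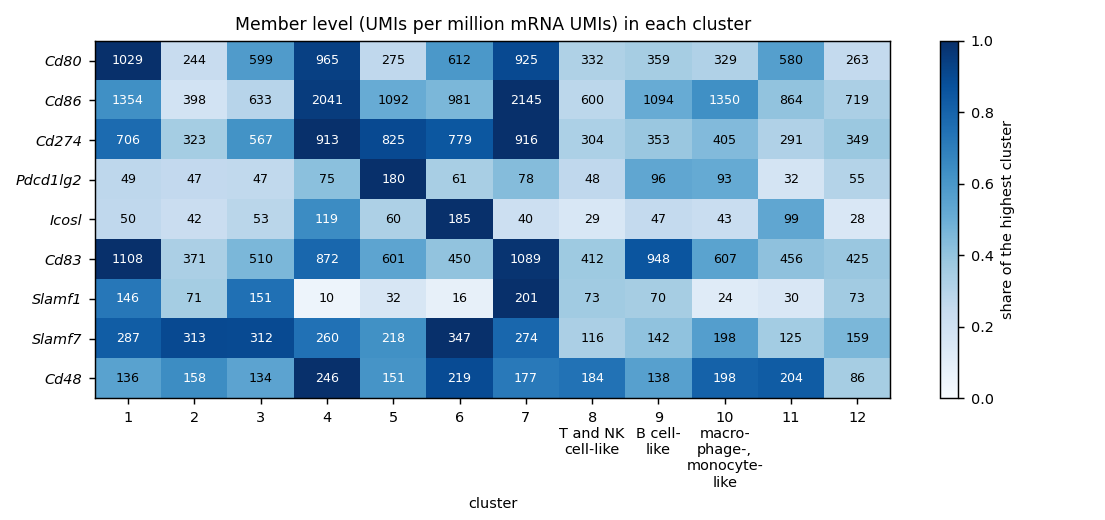
Level of each gene (numbers, CPM) in the 12 clusters, shaded by its share of the gene's highest cluster. Icosl was highest in clusters 6 and 4, at 185 and 119 CPM, where Slamf1 was lowest, at 16.1 and 9.89 CPM, and Pdcd1lg2 was highest in cluster 5.

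These clusters were spread unevenly over the populations. Clusters 4 and 6 held 26.4% and 24% of BFP+RFP+ cells, 18.2% and 9.88% of BFP-RFP+ cells, 6.45% and 10.4% of BFP+RFP- cells, and 5.13% and 3.85% of BFP-RFP- cells. With the clusters weighted to the same mix in each population, the Icosl ratios of RFP+ over RFP- cells were 0.29 and 0.23, in place of 0.81 and 0.71. The Slamf1 ratios were -0.58 and -0.37, in place of -1.29 and -0.66, and in BFP+RFP+ over BFP-RFP+ cells -0.47, in place of -1.09. Pdcd1lg2 in the same comparison was at -0.4986, in place of -0.71, just inside the fold. Its ratios of RFP+ over RFP- cells were -0.18 and -0.08, in place of -0.69 and -0.30. In this mix Slamf1 in BFP+RFP+ over BFP+RFP- cells was the only member past the fold in any of the 4 comparisons.

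Within single clusters, differences remained in some and not in others. In clusters 4 and 6, where Icosl was highest, its ratio of RFP+ over RFP- cells was -0.01 (-0.20 to 0.19) and 0.17 (0.02 to 0.33) among BFP+ cells, and -0.07 (-0.34 to 0.23) and -0.08 (-0.37 to 0.22) among BFP- cells. In cluster 1 it was at 85.9 CPM in BFP+RFP+ cells against 45.6 CPM in BFP+RFP- cells, a log2 ratio of 0.91 (0.68 to 1.15), and at 53.4 CPM in BFP-RFP+ cells against 23.9 CPM in BFP-RFP- cells, 1.16 (0.74 to 1.59). Among BFP- cells it was also past the fold upwards in clusters 2, 3 and 7, at 1.11, 0.75 and 0.50 (0.08 to 0.94 in cluster 7). Among BFP+ cells its ratio in cluster 7 was -0.61, with an interval of -1.85 to 0.29 from 9 and 112 UMIs. Slamf1 in BFP+RFP+ over BFP+RFP- cells was past the fold downwards in clusters 1 and 3, at -1.10 (-1.32 to -0.88) and -0.70 (-1.11 to -0.33), and at -0.41 (-0.94 to 0.05) in cluster 2. It was also past the fold downwards in cluster 4, at -1.29 (-2.01 to -0.61), though from 29 and 50 UMIs. In cluster 6 it stood at 13.1 CPM in BFP+RFP+ and 17.6 CPM in BFP+RFP- cells, from 44 and 73 UMIs. In cluster 1 it stood at 69.7 CPM in BFP+RFP+ and 150 CPM in BFP-RFP+ cells, whereas BFP+RFP- cells had 149 CPM and BFP-RFP- cells 204 CPM. In cluster 7, where it was highest, 25 BFP+RFP+ cells had 201 CPM and 165 BFP+RFP- cells 207 CPM. Pdcd1lg2 was lower in BFP+RFP+ than in BFP-RFP+ cells in all 6 clusters that could be compared, by -0.23 to -1.22, and past the fold in 4. The intervals included 0 in clusters 2 and 3. They were -1.19 to 0.40 in cluster 2, from 23 and 39 UMIs, and -0.98 to 0.44 in cluster 3, from 25 and 63 UMIs. The Pdcd1lg2 ratio of RFP+ over RFP- cells was below 0 in all 6 clusters compared among BFP+ cells. Among BFP- cells it was below 0 in 4 of 7 and above 0 in 3.

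The antibody tags gave a second, protein-based reading of the same cells. Each tag is a 15-base oligo on its antibody, counted in UMIs, and the cells were split at the 25th, 50th and 75th percentile of a tag into tag levels 1 (lowest) to 4 (highest). Ratios set level 4 over level 1. The oligos are shown because these letters are the whole readout behind the comparison.
CD11b tag: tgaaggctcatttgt
CD8a tag: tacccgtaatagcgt
CD172a tag: gattcccttgtagca
CD301b tag: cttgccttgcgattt
Cells with more of a tag also had more RNA, and the median mRNA UMIs per cell in levels 4 and 1 were 17386 and 11751.5 for CD11b, 17928.5 and 11639 for CD8a, 18217 and 11011 for CD172a, and 17633 and 12501 for CD301b. The tags were also related to each other, with Spearman correlations over the 5023 cells of 0.62 between CD172a and CD301b, 0.40 between CD11b and CD172a and 0.02 between CD11b and CD8a.

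CD172a, the SIRPα protein of type 2 conventional dendritic cells, graded Slamf1 most steeply. From tag level 1 to 4, Slamf1 stood at 28.8, 49.5, 88.0 and 136 CPM, a log2 ratio of 2.24 (2.10 to 2.39) of level 4 over level 1. Level 4 exceeded level 1 in each population, with ratios of 2.24 in BFP+RFP+ and 2.21 in BFP-RFP+ cells, and of 1.77 in BFP+RFP- and 2.66 in BFP-RFP- cells. Icosl went the other way, at 120, 95.1, 67.4 and 47.5 CPM, a ratio of -1.34 (-1.45 to -1.24). Pdcd1lg2 and Cd86 were past the fold at 0.59 and 0.51, making 3 genes higher and 1 lower of 9, against 25% of all genes, with 8.35% higher and 16.6% lower. In clusters 1 to 7 alone Pdcd1lg2 was at 0.46 and Cd86 at 0.31, and with the tag divided by the cell's mRNA UMIs Cd86 was at 0.09. The Pdcd1lg2 ratio was 1.13 in BFP+RFP+ and 0.31 in BFP-RFP+ cells, but 1.00 in BFP+RFP- and -0.62 in BFP-RFP- cells, so it had no common direction.

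For Icosl and Slamf1, CD8a showed the reverse of CD172a, while Cd86 was past the fold upwards for both tags. Icosl stood at 43.6, 50.3, 80 and 113 CPM from level 1 to 4, a ratio of 1.38 (1.26 to 1.5), and was higher at level 4 in each population, by 0.57 to 1.67. Slamf1 was lower at level 4 at -1.28 (-1.40 to -1.17), and by -0.92 to -1.62 within populations. Cd80 at 0.66, Cd86 at 0.50 and Pdcd1lg2 at -0.56 were also past the fold, making 3 genes higher and 2 lower of 9, against 18.1% of all genes, with 5.63% higher and 12.5% lower. With the tag divided by mRNA UMIs, Cd86 was at 0.12 and Cd80 at 0.49. With tag levels set within each population, Cd80 at 0.48, Cd86 at 0.37 and Pdcd1lg2 at -0.37 were inside the fold, and with cells split at the median these 3 were at 0.38, 0.35 and -0.42, while Icosl and Slamf1 stayed past it. Level 4 held 45.6% of BFP+RFP+ and 29.1% of BFP-RFP+ cells, against 19.8% of BFP+RFP- and 15.2% of BFP-RFP- cells.

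CD11b, the integrin of myeloid cells, set Pdcd1lg2 apart, at 41.5, 56.6, 73.8 and 112 CPM from level 1 to 4, a ratio of 1.43 (1.31 to 1.56). It was higher at level 4 in each population, by 0.85 in BFP+RFP+ and 1.52 in BFP-RFP+ cells, and by 1.48 in BFP+RFP- and 1.39 in BFP-RFP- cells. Slamf1 was lower at -0.58, making 1 gene higher and 1 lower of 9, against 21.4% of all genes, with 8.88% higher and 12.5% lower, but its ratio was 0.36 in BFP+RFP+ cells against -0.97 in BFP-RFP- cells. In clusters 1 to 7 alone Cd80 was past the fold too, at -0.59, in place of -0.46. CD301b, a lectin of dermal type 2 dendritic cells, followed CD172a, with Slamf1 at 1.37 (1.26 to 1.48), Icosl at -0.96 (-1.06 to -0.85) and Pdcd1lg2 at 0.50, making 2 genes higher and 1 lower of 9, against 15.8% of all genes, with 4.74% higher and 11.1% lower. Pdcd1lg2 sat at the threshold and was at 0.38 without the top 10% of cells by UMIs, with levels set within each population at 0.38 and with a split at the median at 0.39. In BFP-RFP- cells it was at -0.29 (-0.50 to -0.06). Over all cells Slamf7 and Cd48 stayed within 0.37 of 0 across all 4 tags, and Cd274 and Cd83 within 0.45. Within populations larger values occurred, with Slamf7 at 0.80 and Cd274 at 0.69 for CD8a in BFP+RFP+ cells, Cd274 at 0.72 for CD11b in BFP+RFP- cells and Cd83 at 0.68 for CD172a in BFP-RFP- cells.

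**Figure D4:**
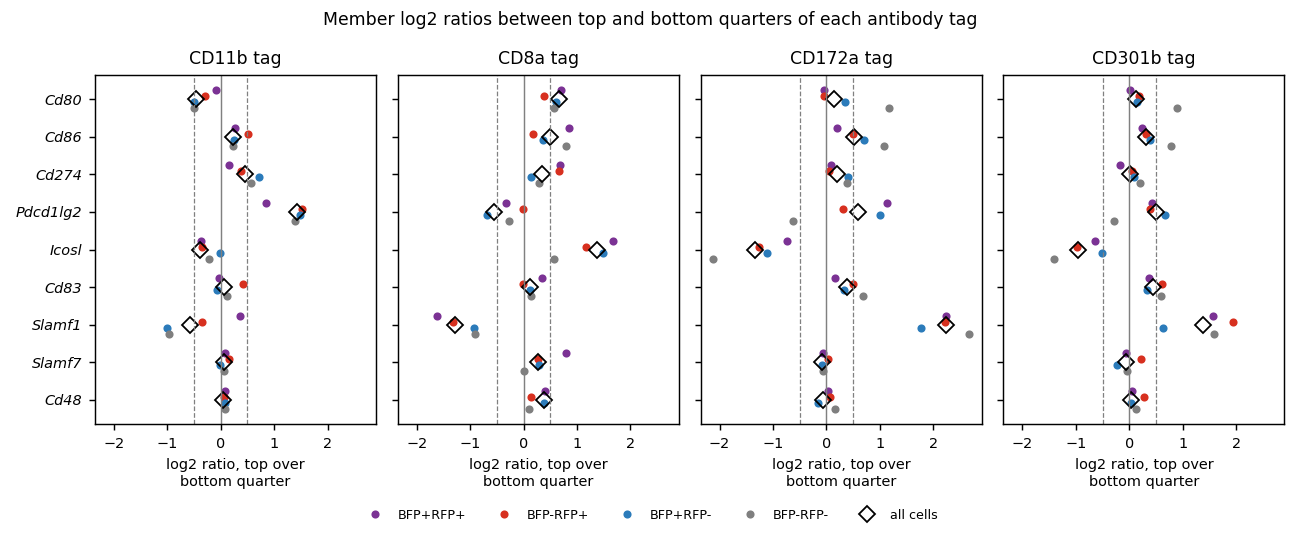
log2 ratio of each gene (x axis) in cells of tag level 4 (highest 25%) over level 1 (lowest 25%) of each antibody tag, in all cells (diamonds) and within each population (points); dashed lines mark 0.5 in size. Slamf1 stood at 2.24 for CD172a and -1.28 for CD8a, Icosl at -1.34 and 1.38 for the same tags, and Pdcd1lg2 at 1.43 for CD11b.

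Tags taken 2 at a time gave the extremes of both genes. Cells above the median of CD8a and not of CD172a had 135 CPM of Icosl and 19.6 CPM of Slamf1, whereas cells above the median of CD172a and not of CD8a had 31.1 CPM of Icosl and 149 CPM of Slamf1. Pdcd1lg2 was highest, at 102 CPM, in cells above the median of both CD11b and CD301b. It stood at 81.5 CPM in cells above the median of CD11b alone, 49.6 CPM in those above that of CD301b alone and 49.1 CPM in the remaining cells.

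Population differences remained at matched tag levels, though not evenly. Slamf1 in BFP+RFP+ over BFP+RFP- cells was at -1.24, -1.36, -1.12 and -0.77 from level 1 to 4 of CD172a. Icosl in BFP-RFP+ over BFP-RFP- cells was at -0.06, 0.90, 0.61 and 0.53 over levels 1 to 4 of CD8a, and in BFP+RFP+ over BFP+RFP- cells at 0.21, 0.30, 0.68 and 0.39. Pdcd1lg2 in BFP+RFP+ over BFP-RFP+ cells was at -0.11 at level 1 of CD11b and -0.59, -0.65 and -0.79 at the levels above it.

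In single cells 4 of the 9 genes, Cd80, Cd86, Cd274 and Cd83, were found together in every pair and are called the core here. Co-detection was measured in thinned cells as the log2 odds ratio of both genes having a UMI, and a pair was called found together where it was at least 0.5 in all 4 populations. Of 36 pairs, 8 were. They were the 6 pairs among Cd80, Cd86, Cd274 and Cd83, and the pairs of Cd86 with Pdcd1lg2 and Cd274 with Slamf7. The strongest was Cd80 with Cd86, at 2.85 in BFP+RFP+ and 2.80 in BFP-RFP+ cells, and at 2.42 in BFP+RFP- and 2.25 in BFP-RFP- cells. All 4 core genes had a UMI in 66.5% of BFP+RFP+, 57.6% of BFP-RFP+, 53.4% of BFP+RFP- and 50.8% of BFP-RFP- cells, where the product of their single shares would give 59.3%, 46.6%, 44.2% and 40.3%. In clusters 1 to 7 alone 5 pairs were found together, without Cd274 with Cd83, Cd86 with Pdcd1lg2 and Cd274 with Slamf7. Cd80 with Cd86 was then at 1.85 to 2.14 over the populations, and Cd274 with Cd83, a pair of the core, at -0.29 to 0.63. Over all clusters, Cd274 with Icosl and Cd80 with Slamf7 fell just short of the rule, with lowest values of 0.47 and 0.46. Pairs of other genes were not put to this rule, so no background share stands beside these counts.

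Icosl and Slamf1 were the 1 pair found apart, with log2 odds ratios of -0.85 in BFP+RFP+ and -1.32 in BFP-RFP+ cells, and of -1.10 in BFP+RFP- and -0.98 in BFP-RFP- cells. Both had a UMI in 3.05% of BFP+RFP+, 3.89% of BFP-RFP+, 3.35% of BFP+RFP- and 4.42% of BFP-RFP- cells, where the product of their shares would give 4.44%, 6.92%, 5.52% and 6.68%. In clusters 1 to 7 alone the ratios lay between -1.32 and -0.86. Slamf1 joined the core in some populations only: with Cd80 it was at -0.10 in BFP+RFP+ and 0.12 in BFP-RFP+ cells but at 0.81 in BFP+RFP- and 1.13 in BFP-RFP- cells, and with Cd83 at 0.05 in BFP+RFP+ and -0.09 in BFP-RFP+ cells but at 0.80 in BFP+RFP- and 0.96 in BFP-RFP- cells. The differences between these ratios were not tested. Neighbours in the genome did not pass this rule, with Slamf7 and Cd48 at -0.07 to 0.42 and Cd274 and Pdcd1lg2 at 0.47 to 1.34 over the populations.

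**Figure D5:**
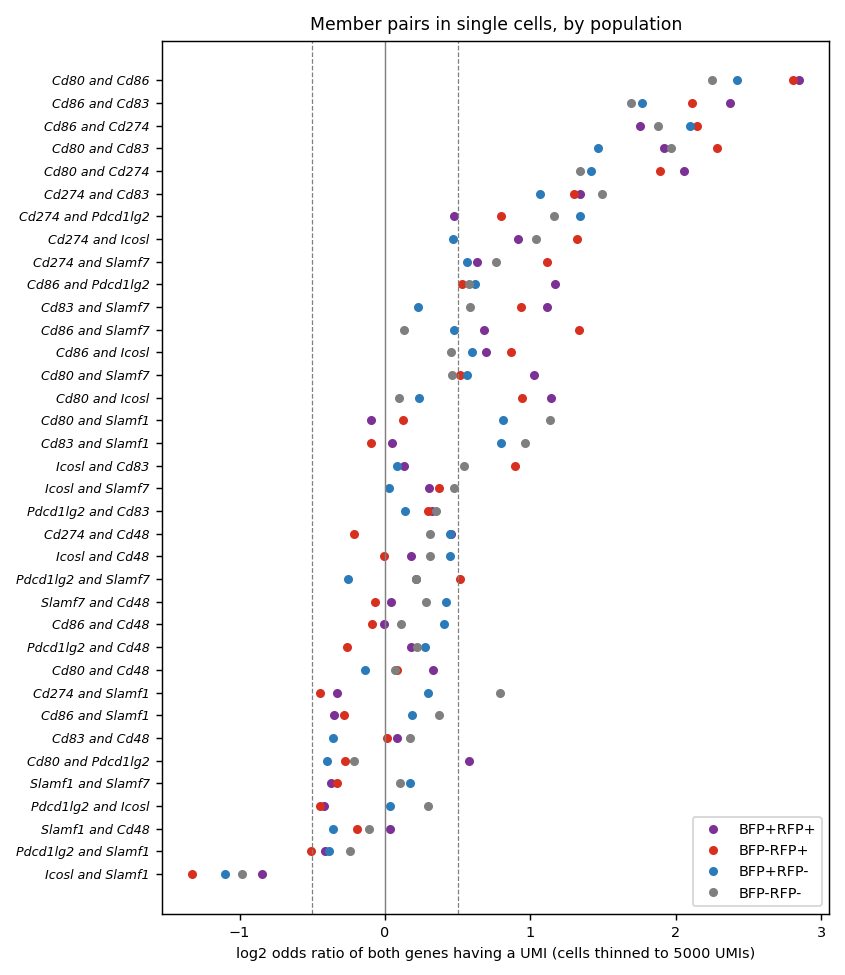
log2 odds ratio (x axis) of both genes of a pair having a UMI in cells thinned to 5000 UMIs, for 36 pairs in the 4 populations (points); dashed lines mark 0.5 in size. Pairs among Cd80, Cd86, Cd274 and Cd83 lie at the top, and Icosl with Slamf1 lies at the bottom with all 4 populations below -0.5.

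Tnfsf4 mRNA, the transcript that BFP reports, went with the CD28 ligands. Cells with 3 or more thinned Tnfsf4 UMIs (224) had 2592 CPM of Cd86 and 1368 CPM of Cd80, against 1089 and 588 CPM in the 3906 cells with none, log2 ratios of 1.25 (1.22 to 1.28) and 1.22 (1.18 to 1.26). Cd83 at 0.81, Cd274 at 0.62 and Icosl at 0.58 were also higher, and Slamf1 at -1.02 and Pdcd1lg2 at -0.60 lower, making 5 genes higher and 2 lower of 9, against 30.9% of all genes, with 7.42% higher and 23.5% lower. Within populations Cd86 was at 1.05 to 1.37 and Cd80 at 0.82 to 1.37. The low ends are those of BFP-RFP- cells, where only 7 cells had 3 or more Tnfsf4 UMIs. Cells of all clusters were counted, and the comparison was not repeated in the dendritic cell clusters alone or at a common cluster mix. The T and NK cell-like cluster had 600 CPM of Cd86 and 332 CPM of Cd80. Its part in the Tnfsf4 ratios was not tested. The Slamf1 ratio was -1.49 (-2.03 to -1.02) in BFP+RFP+ cells but -0.15 (-0.41 to 0.09) in BFP+RFP- cells, and the Icosl ratio 0.09 (-0.11 to 0.28) and 0.67 (0.43 to 0.89). That of Pdcd1lg2 was inside the fold in these populations, at -0.14 (-0.47 to 0.17) in BFP+RFP+ and -0.25 (-0.53 to 0.01) in BFP+RFP- cells, which held 116 and 79 of the 224 cells.

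The genes whose levels went most closely with each member were ranked by the mean over the 4 populations of the correlation across cells, among 6303 genes. Cells of 1 capture share depth and cluster, so these are descriptions. Cd83 was most like Ccr7, the receptor that guides dendritic cells to lymph nodes (0.54), Rel, an NF-kB subunit (0.53), and Zfp36, an mRNA decay factor (0.52). Cd80 was most like Samsn1 (0.57), Stat4 (0.55) and Itga4 (0.54), Cd86 most like Pik3r1, Ly75 and Clic4 (0.53, 0.53 and 0.52), and Cd274 most like Tbc1d4, Cers6 and Mreg (0.53, 0.52 and 0.51). For the sparser genes the highest values were weak, at 0.40 for Slamf1 with Psd3, 0.35 for Icosl with Prnp, 0.32 for Slamf7 with Tbc1d4, 0.29 for Cd48 with Vim and 0.25 for Pdcd1lg2 with Tmem131, and are no finding in counts this low.

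Sequences of 250 bases before the gene start were found for 7 of the 9 genes, all but Cd86 and Cd83, and searched for 5 motifs. The NF-kB motif was in those of Cd80, Icosl and Pdcd1lg2 and in 45.8% of the 32851 promoters of the table. The AP-1 motif TGANTCA was in those of Cd80 and Slamf7 and in 6.75% of all, and the PU.1 motif GAGGAA in that of Pdcd1lg2 and in 23.3% of all. The STAT motif TTCNNNGAA, in 7.02% of all, and the composite PU.1 and IRF motif, GGAA and GAAA with 2 bases between them, in 2.30%, were in none of the 7. Both strands were searched, and in that of Cd80 an NF-kB match, 52 bases before the gene start, directly precedes the AP-1 match at 42 bases. A match is only a description of these letters.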

How the data were processed

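The authors deposited raw UMI counts (unique molecular identifiers, 1 per captured transcript) as 1 matrix of 22548 genes, 4 antibody tags and 4 hashtags in 6079 barcodes from 3 libraries of 1 pool. Per the file headers, Cell Ranger 7.0.0 made it, and GRCm39 (mm39) is the build in the submitters' processing notes. Settings for calling cells were not given in the sources used here. Gene symbols were taken as deposited, and 22404 IDs matched the mouse gene name table. The genes described and the lists beside them were chosen with earlier results of these data known.

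Barcodes were assigned by the 80% hashtag rule. This removed 699 barcodes (11.5%), and 357 more failed the UMI or mitochondrial limits. Doublets of cells of the same population cannot be seen by hashtags and were kept. HTODemux in Seurat 5.3.0 (R 4.3.3, quantile 0.99) called 175 of the kept cells doublets, and was an alternative. No doublet caller was run on the mRNA.

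UMIs were summed per population with Python 3.11.15, numpy 2.4.6 and scipy 1.17.1. The populations held 14140272 mRNA UMIs in BFP+RFP+ and 15746616 in BFP-RFP+ cells, against 35590897 in BFP+RFP- and 14877282 in BFP-RFP- cells. Levels have exact Poisson intervals, ratios exact conditional binomial intervals and shares Clopper-Pearson intervals, all at 95%. Tag and hashtag UMIs were kept out of mRNA totals. Background shares cover genes with at least 100 UMIs in both groups together. Because 1 sample stands for each population, the count models that replicated counts would call for were not used. TMM factors (edgeR 4.0.16) and median-of-ratios factors (DESeq2 1.42.0) served as other scalings only. They moved all ratios by 0.10 and 0.11 in BFP+RFP+ over BFP-RFP+ cells and by less than 0.1 elsewhere. The script was checked on simulated counts with known changes.

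Cells were clustered with scanpy 1.11.5 (normalised to 10000 UMIs, log-transformed, 2000 variable genes, 30 principal components, 15 neighbours, Leiden resolution 0.5). Names of cell types were given to clusters only from a list of markers, 11 of 14 T and NK cell, 12 of 12 B cell and 14 of 14 macrophage and monocyte markers for clusters 8, 9 and 10. All 9 members are named by rule, of the other lists at most 8 genes per comparison, those past the fold with the largest ratios, and likeness by the 3 highest mean correlations. Promoter windows are RefSeq's for GRCm38.p6, another build than that of the counts, and are used for their letters only. The alternatives were other hashtag, depth and mitochondrial limits, other scalings and pseudocounts, tag normalisations, thinning depths and cell sets.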

Additional observations from a re-analysis of the deposited data

Results flagged for a closer look

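Small ratios of 3 genes had opposite signs in the 2 states of the other reporter, and this difference was not tested, since each population is 1 sample. The BFP ratio of Slamf7 was 0.06 among RFP+ and -0.03 among RFP- cells, a difference of 0.0955 (0.01 to 0.18 by counting error). Its RFP ratio was 0.06 among BFP+ and -0.03 among BFP- cells, which is the same difference of 0.0955. The BFP ratio of Cd48 was -0.01 among RFP+ and 0.12 among RFP- cells, a difference of -0.1358 (-0.24 to -0.03). The RFP ratio of Cd83 was 0.08 among BFP+ and -0.05 among BFP- cells, a difference of 0.1286 (0.08 to 0.18). The signs of the BFP ratios depend on the scaling. With TMM scaling they were 0.16 and 0.05 for Slamf7 and 0.09 and 0.20 for Cd48, all positive, and with median-of-ratios scaling 0.17 and 0.04, and 0.09 and 0.19. The RFP ratios kept opposite signs with TMM scaling, at 0.08 and -0.03 for Slamf7 and 0.10 and -0.04 for Cd83. With clusters weighted to the same mix they were -0.005 and -0.02 for Slamf7 and -0.06 and 0.003 for Cd83.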

How the results depend on the processing

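No paired analysis was possible because the populations have no replicates. Weighted to 1 common mix of 11 clusters, the counts of genes past the fold were 0 for BFP+RFP+ over BFP-RFP+, 1 for BFP+RFP+ over BFP+RFP- and 0 for BFP-RFP+ over BFP-RFP-, in place of 2, 3 and 2. For BFP+RFP- over BFP-RFP- the count of 0 was 1, Slamf1, without the top 10% of cells by UMIs, without barcodes with other-cell markers and in clusters 1 to 7 alone, at -0.54, -0.51 and -0.53. For the CD11b tag the count of 2 was 4 without the top 10% and with tag UMIs per 10000 mRNA UMIs. For the CD8a tag the count of 5 was 3 with tag UMIs per 10000 mRNA UMIs, and 2 with tag levels set within each population or with cells split at the median. For the CD172a tag the count of 4 was 2 without the top 10%, without other-cell markers, in clusters 1 to 7 alone and with a split at the median. In place of 8 pairs found together, 27 were counted without thinning, and 5 without other-cell markers and in clusters 1 to 7 alone. The other 80 settings of these counts stayed within 1.5 times. For single ratios, 553 values moved by no more than counting error and 275 moved by more, of which none that was past the fold changed sign. Inside the fold signs did change, as for Cd80 and Cd86 in BFP+RFP+ over BFP-RFP+ cells without other-cell markers, at -0.05 and -0.13. Limits: the filter on other-cell markers left 2449 cells, since 2409 barcodes had at least 5 UMIs over a T and NK cell list that dendritic cells share in part; clusters 1 to 7 alone, chosen after seeing the data, left 4532. Tags and mRNA share depth, and genes under 100 CPM rest on few UMIs per cell.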
